A study of Mus musculus with 6 samples.

Results

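The enzymes of serine synthesis and folate one-carbon metabolism were followed through 10 gene symbols of a transcript table of LLC cells, out of 55367 symbols in the table. The 10 genes, taken from a fixed list of symbols, are Phgdh, Psat1, Psph, Shmt1, Shmt2, Mthfd1, Mthfd1l, Mthfd2, Aldh1l1 and Aldh1l2. The list was chosen with earlier results of these data known. Its counts beside those over all tested genes therefore describe the group and are no test of it. LLC is a mouse cancer cell line from a Lewis lung carcinoma, used here as 1 wild-type line. The tested cells received 5 µM STM2457, a small-molecule inhibitor of the RNA methyltransferase METTL3, for 46 h, and the control cells received the solvent DMSO for the same time. Both groups grew in DMEM with fetal bovine serum and antibiotics, and each group held 3 libraries. Whether the libraries of a group were grown apart is not stated in the labels, and the p-values therefore rest on a spread between libraries that may be technical.

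Cells make serine from a glycolytic intermediate in a short chain that runs through PHGDH, PSAT1 and PSPH. Serine hydroxymethyltransferases then split serine into glycine and a one-carbon unit carried on tetrahydrofolate. In proliferating cells the mitochondrial branch of folate metabolism oxidises that unit to formate, and the cytosolic branch uses formate for purines, thymidylate and methyl groups. Several of these genes are known targets of ATF4, a transcription factor that is switched on when amino acids are short. DMEM supplies serine, glycine and folic acid, and how far the cells relied on making their own serine was not tested.

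After STM2457, 8 of the 9 tested genes of the group were lower than in DMSO, and 0 were higher (limma on the deposited log2 values, adjusted p under 0.05). Over all tested genes 25.7% were lower, 30.7% higher and 56.3% either by the same test. All 3 STM2457 libraries lay below all DMSO libraries in 8 enzyme genes and above them in 0, against 28.4% below and 33.4% above over all tested genes. The fall was steepest for Aldh1l2, which came to 0.487 of its DMSO level, followed by Mthfd2 at 0.622 and Psph at 0.636. Psat1 came to 0.777, Mthfd1l to 0.809, Shmt2 to 0.837, Phgdh to 0.883 and Shmt1 to 0.887 of the DMSO level. Mthfd1, the cytosolic enzyme that takes formate back into the folate pool, stood at 1.01 times its DMSO level and did not pass. Aldh1l1 had at most 2 reads in any library and was not tested. The median of the 9 folds was 0.809, and the median over all tested genes was 0.996. RNA from a whole culture cannot tell less RNA per cell apart from fewer cells that express a gene.

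The libraries held 17671691 to 17917212 reads in genes, recovered from the deposited values, and a count of 0 allows up to 3 reads, or 0.167 to 0.170 CPM (counting error only). Of the tested genes, 3868 were higher and 3240 lower after STM2457. With the libraries centred on their upper quartile, 2819 were higher and 4814 lower. Mettl3, whose product STM2457 inhibits, measured 488 ± 32.4 normalised reads after STM2457 and 537 ± 66.0 in DMSO (SD, n = 3), and did not pass (limma adjusted p = 0.149). Markers of other cells ranged from 0 to a moderate level. The summed level of the endothelial list was 4.95 to 9.93 normalised reads after STM2457 and 4.96 to 7.01 in DMSO, with 0 of 5 genes tested. In the macrophage and leukocyte list Adgre1, Itgam and Cd3e were at 0, although 68.7% of the exon length of Itgam is shared with Gm49368 on the same strand, so its 0 is uncertain. The list summed to 98.1 to 122 normalised reads after STM2457 and 100.3 to 114 in DMSO, mostly Cd68. The epithelial list, which the origin of the line would call for, also summed to no more than 9.91 normalised reads after STM2457 and 14.02 in DMSO, with Epcam and Cdh1 at 0 in all 6 libraries. The lung epithelial list summed to 22.8 to 25.8 after STM2457 and 16.9 to 25.1 in DMSO, mostly Ager, with Nkx2-1 and Sftpa1 at 0. The fibroblast list summed to 153 to 166 after STM2457 and 170 to 210 in DMSO, mostly Pdgfra, and 1 of its 4 tested genes, Lum, was lower. Lum had few reads, 12, 13 and 3 after STM2457 and 25, 41 and 22 in DMSO. Over all tested genes 25.7% were lower. The part of any other cell type in the results below was not tested.

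**Figure D1:**
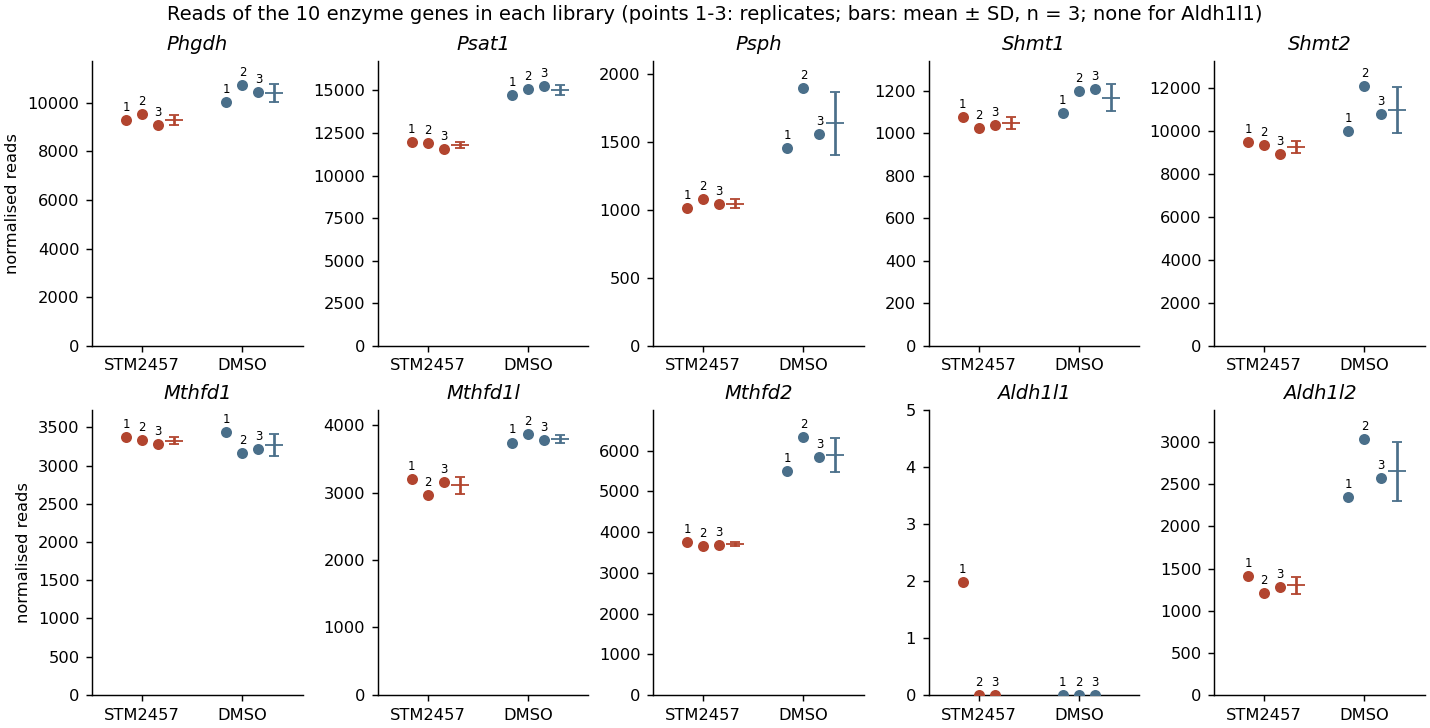
Normalised reads (vertical axis, from 0) of the 10 enzyme genes in the 3 STM2457 and the 3 DMSO libraries, with replicate numbers and mean ± SD. In 8 genes every STM2457 library lies below every DMSO library, Mthfd1 overlaps, and Aldh1l1 has 2 reads in 1 STM2457 library and 0 in the others.

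All 3 enzymes of serine synthesis fell. Phgdh encodes phosphoglycerate dehydrogenase, which opens the pathway. It measured 9273, 9518 and 9079 normalised reads (recovered reads over the size factor of that library) in STM2457 replicates 1 to 3, against 10028, 10734 and 10451 in DMSO replicates 1 to 3. The groups did not overlap, and the fold of 0.883 had a 95% interval of 0.838 to 0.929 (limma adjusted p = 6.64e-04). Psat1 encodes the transaminase of the second step. It measured 11941, 11891 and 11582 normalised reads after STM2457 and 14722, 15087 and 15259 in DMSO. Replicates of each group lay close together, and the fold was 0.777 with an interval of 0.740 to 0.815 (limma adjusted p = 1.11e-08). Psph encodes the phosphatase that releases serine. It measured 1015, 1081 and 1047 normalised reads after STM2457 and 1453, 1897 and 1563 in DMSO. The groups were apart and the DMSO libraries were spread far more widely than the STM2457 libraries, with replicate 2 highest. The fold of 0.636 had an interval of 0.538 to 0.752 (limma adjusted p = 7.89e-04).

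Serine is then split by the hydroxymethyltransferases, SHMT2 in mitochondria and SHMT1 mainly in the cytosol. Shmt2 measured 9470.0, 9369 and 8936 normalised reads after STM2457 and 10013, 12114 and 10773 in DMSO. The groups did not overlap, though DMSO replicate 1 lay near the STM2457 libraries, and the fold was 0.837 with an interval of 0.761 to 0.920 (limma adjusted p = 0.00317). Shmt1 measured 1077, 1023 and 1040.4 normalised reads after STM2457 and 1095, 1199 and 1206 in DMSO. DMSO replicate 1 lay just above STM2457 replicate 1, and the fold was 0.887 with an interval of 0.828 to 0.951 (limma adjusted p = 0.00861). With DMSO replicate 3 left out Shmt1 no longer passed (limma adjusted p = 0.0531), nor with STM2457 replicate 2 left out (0.0502).

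In mitochondria the one-carbon unit is oxidised by MTHFD2, a dehydrogenase and cyclohydrolase, and set free as formate by MTHFD1L. Mthfd2 measured 3752, 3668 and 3689 normalised reads after STM2457 and 5502, 6346 and 5842 in DMSO. Its 3 STM2457 libraries lay close together and far below the DMSO libraries. The fold of 0.622 had an interval of 0.584 to 0.661 (limma adjusted p = 1.65e-11), the smallest p of the 9. Mthfd1l measured 3206, 2970 and 3150.0 normalised reads after STM2457 and 3743, 3865 and 3786 in DMSO. The groups were apart, with a fold of 0.809 and an interval of 0.765 to 0.854 (limma adjusted p = 7.63e-07).

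Mthfd1 encodes the cytosolic protein that carries dehydrogenase, cyclohydrolase and formyltetrahydrofolate synthetase activities in 1 chain. It measured 3367, 3333 and 3280 normalised reads after STM2457 and 3432, 3157 and 3217 in DMSO. The STM2457 libraries lay within the range of the DMSO libraries. The fold was 1.01 with an interval of 0.953 to 1.06 (limma adjusted p = 0.592), so a fall of the size seen for Mthfd1l or Mthfd2 lies outside it.

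Formyltetrahydrofolate dehydrogenases end the chain by oxidising the formyl group to carbon dioxide while making NADPH, ALDH1L2 in mitochondria and ALDH1L1 in the cytosol. Aldh1l2 measured 1411, 1214 and 1281 normalised reads after STM2457 and 2356, 3039 and 2572 in DMSO. Every STM2457 library was far below every DMSO library, and the fold of 0.487 had an interval of 0.395 to 0.599 (limma adjusted p = 7.55e-04). Only 2.77% of the tested genes had a smaller fold than Aldh1l2, against 6.61% for Mthfd2 and 7.29% for Psph. Aldh1l1 had 2, 0 and 0 reads after STM2457 and 0, 0 and 0 in DMSO, all under the limit of 3 reads, so no fold is given.

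**Figure D2:**
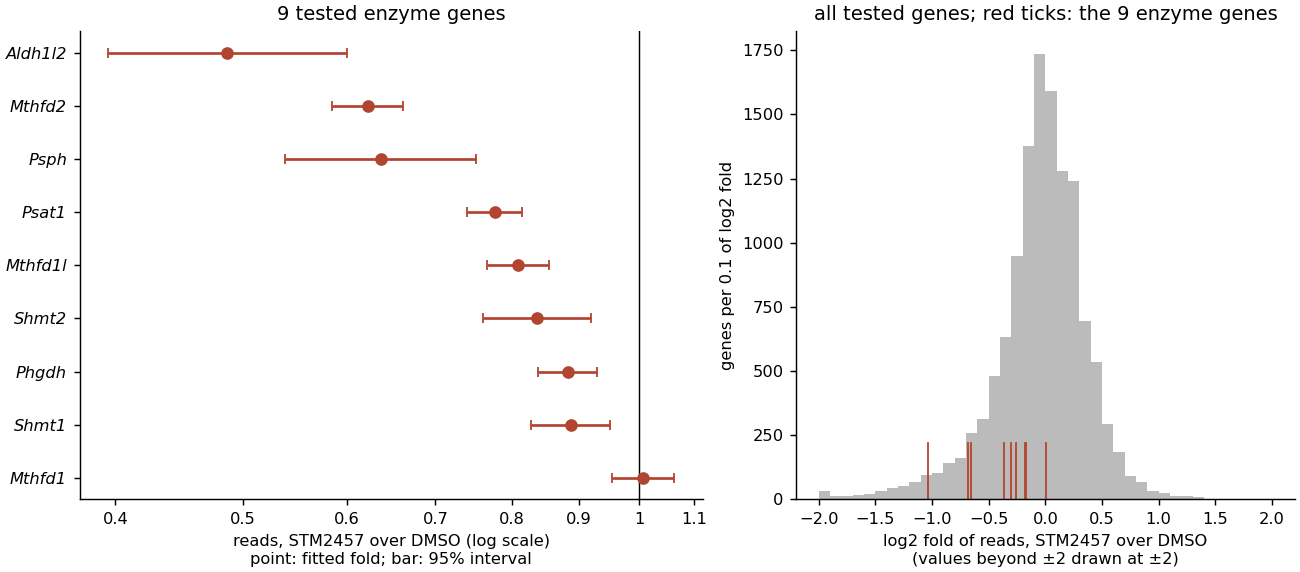
Left, fitted fold of reads, STM2457 over DMSO, with 95% intervals for the 9 tested enzyme genes on a log axis. Right, the number of all tested genes per 0.1 of log2 fold, with the 9 genes as red ticks: 8 lie left of 0, from 0.887 down to 0.487, and Mthfd1 lies at 1.01.

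DMSO replicate 2 stood apart in part of the group. It was the highest of the 3 DMSO libraries in 6 of the 9 genes, against 4358 of 12618 tested genes. Psph was 1.26 times, Aldh1l2 1.23 times, Shmt2 1.17 times and Mthfd2 1.12 times the mean of DMSO replicates 1 and 3 there, while Psat1 was at 1.01 and Mthfd1 at 0.950. Without that library the ratio of the group means was 0.529 for Aldh1l2, 0.695 for Psph, 0.653 for Mthfd2 and 0.891 for Shmt2, against 0.490, 0.640, 0.628 and 0.844 with it. All 8 genes still fell without it.

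The order of the levels per length, in normalised reads per kb of merged exons, differed between the groups. Phgdh was highest in both, at 3737 ± 88.4 after STM2457 and 4185 ± 143 in DMSO (SD, n = 3). Shmt2 and Psat1 came next, at 2978 ± 91.3 and 2775 ± 45.7 after STM2457, and at 3527 ± 342 and 3531 ± 64.5 in DMSO, where they did not differ beyond their spread. Mthfd2 followed at 1062 ± 12.5 after STM2457 and 1691 ± 122 in DMSO. Mthfd1 and Mthfd1l were at 749 ± 9.92 and 701 ± 27.9 after STM2457, and at 736 ± 32.6 and 856 ± 13.9 in DMSO, so that their order was the other way round. The lowest were Shmt1, Psph and Aldh1l2, in that order after STM2457, at 270 ± 7.10, 242 ± 7.64 and 174 ± 13.4. In DMSO they were at 300.5 ± 16.1, 378 ± 53.4 and 354 ± 46.5, where Psph and Aldh1l2 did not differ beyond their spread. Merged exons include rare transcript ends, which lowers the level of a gene with long annotated exons, such as Aldh1l2 with 7503 bases.

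**Figure D3:**
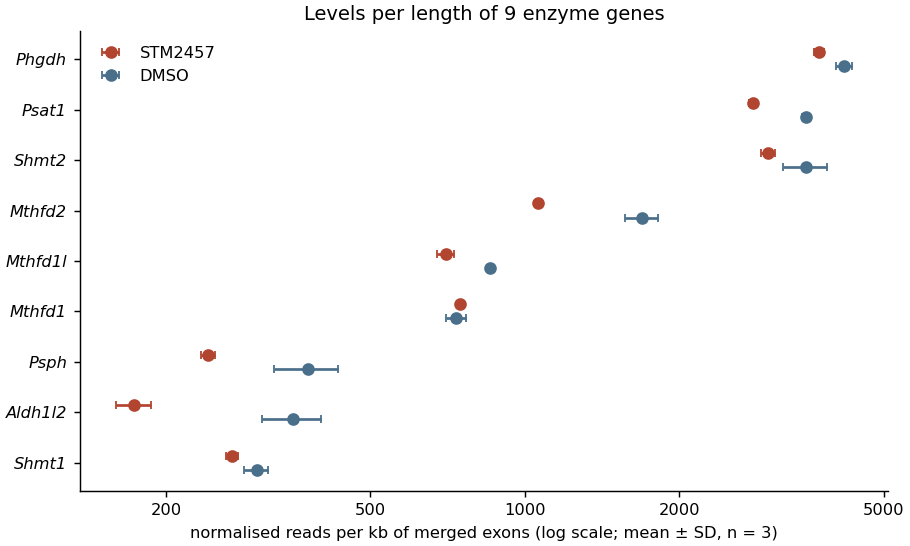
Normalised reads per kb of merged exons (log axis, mean ± SD, n = 3) of 9 enzyme genes after STM2457 and in DMSO. Phgdh, Psat1 and Shmt2 lie between 2775 and 4185, and Mthfd1 is the gene whose 2 groups lie at almost the same level, 749 and 736.

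Mitochondrial enzymes were set against their cytosolic counterparts within each library, which does not depend on the scaling between libraries. Reads of Mthfd2 over those of Mthfd1 came to 1.114, 1.1 and 1.125 in STM2457 replicates 1 to 3 and to 1.603, 2.01 and 1.816 in DMSO replicates 1 to 3, a fold of 0.618. Mthfd1l over Mthfd1 came to 0.952, 0.891 and 0.960 after STM2457 and 1.09, 1.22 and 1.18 in DMSO, a fold of 0.803. Neither ratio overlapped between the groups. Shmt2 over Shmt1 came to 8.79, 9.16 and 8.59 after STM2457 and 9.15, 10.1 and 8.93 in DMSO, a fold of 0.943, and its groups overlapped. The exact two-sided permutation test over 3 against 3 libraries cannot go below 0.1. This exact test gave p = 0.1 for both Mthfd1 ratios and 0.3 for the Shmt ratio, or 0.15, 0.15 and 0.3 adjusted over the 3 ratios formed. The ratio of Aldh1l2 to Aldh1l1 was not formed, as Aldh1l1 was under the limit of 3 reads in every library.

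**Figure D4:**
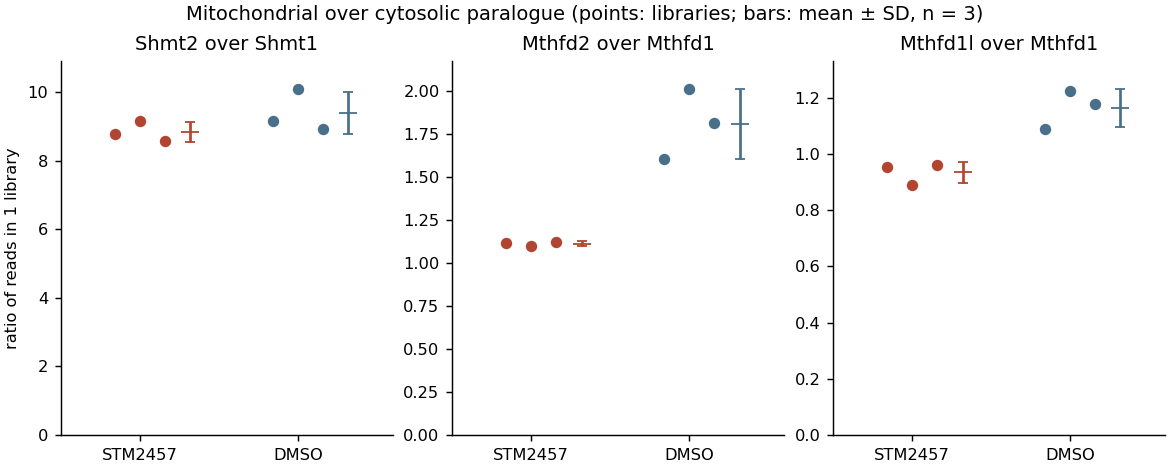
Ratio of reads (vertical axis, from 0) of a mitochondrial enzyme gene over its cytosolic counterpart in each library, with mean ± SD (n = 3). Mthfd2 over Mthfd1 lies between 1.1 and 1.125 after STM2457 and between 1.603 and 2.01 in DMSO, while Shmt2 over Shmt1 overlaps between the groups.

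The counterparts that aligned are distinct at the sequence level. Their longest transcripts in GENCODE M21 aligned with 72.1% identity for Aldh1l1 and Aldh1l2, 71.0% for Shmt1 and Shmt2 and 70.4% for Mthfd1 and Mthfd1l. Mthfd2 and Mthfd1 gave no alignment that met the limits of the search, so no identity is given for them. Phgdh has 8 processed pseudogenes with at least 95% identity over 200 bases or more. The most abundant of them in the table averaged 16.2 reads, and reads that fit both Phgdh and a copy are uncertain. In the annotation of GRCm38, the build named by the submitters, Phgdh lies on chromosome 3 from 98313170 to 98339990, Psat1 on chromosome 19 from 15904678 to 15947337, Psph on chromosome 5 from 129765558 to 129787449, Shmt2 on chromosome 10 from 127517123 to 127522444 and Shmt1 on chromosome 11 from 60788104 to 60811718. Mthfd2 lies on chromosome 6 from 83305691 to 83325908, Aldh1l2 on chromosome 10 from 83487450 to 83534140, and all 7 are on the minus strand. On the plus strand lie Mthfd1 on chromosome 12 from 76255298 to 76319803, Mthfd1l on chromosome 10 from 3973118 to 4167081 and Aldh1l1 on chromosome 6 from 90486427 to 90600203. No source used here says whether counting used the strand, so reads in exons that overlap a gene of the other strand are uncertain. For Aldh1l2 14.1% of the exon length overlaps D10Wsu102e, which did not pass (limma adjusted p = 0.459). For Psph 10.4% overlaps Cct6a, a chaperonin subunit gene with 8275 ± 188 normalised reads after STM2457 and 7984 ± 433 in DMSO (SD, n = 3), which did not pass either (0.272). For Shmt1 4.74% overlaps Smcr8, which rose 1.63-fold (2.91e-12), and the part of these reads in the values of Shmt1 was not tested.

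Since 8 genes fell together, the windows around the transcription starts of the group were searched for 2 motifs. RefSeq promoters, from 250 bases before to 50 after the start, were at hand for 9 of the 10 genes, with 10 promoters in all. The missing gene is Aldh1l2, which fell most, so it was not searched. Psat1 counts more than once, and Mthfd1 and Aldh1l1, which were not among the 8, are included. TGATGNAA, the core of the composite element that ATF4 binds with C/EBP partners, had 0 matches in the 10 promoters on either strand, against 3.97% of 32851 mouse promoters. CACGTG, the E-box that MYC binds, also had 0 matches, against 7.15%. The first 5 letters of the ATF4 element, TGATG, chosen for a search after these results were seen, occurred in 3 of the 10 promoters and in 39.3% of all promoters. A missing match says only that these letters are not in the window. The 3 promoters, without the transcribed bases, are shown because they set the mitochondrial genes Mthfd2 and Mthfd1l, which fell, beside cytosolic Mthfd1, which did not. They are on GRCm38.p6 and read 5′ to 3′ on the strand of the gene, with TGATG or its reverse complement in capitals. They come from chr6:83317605-83317854 on the minus strand for Mthfd2, chr10:3972825-3973074 on the plus strand for Mthfd1l and chr12:76254982-76255231 on the plus strand for Mthfd1.
Mthfd2: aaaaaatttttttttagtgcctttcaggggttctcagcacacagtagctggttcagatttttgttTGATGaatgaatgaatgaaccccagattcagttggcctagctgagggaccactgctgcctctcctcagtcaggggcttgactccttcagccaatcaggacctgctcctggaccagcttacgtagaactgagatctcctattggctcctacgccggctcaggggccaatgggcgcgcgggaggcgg
Mthfd1l: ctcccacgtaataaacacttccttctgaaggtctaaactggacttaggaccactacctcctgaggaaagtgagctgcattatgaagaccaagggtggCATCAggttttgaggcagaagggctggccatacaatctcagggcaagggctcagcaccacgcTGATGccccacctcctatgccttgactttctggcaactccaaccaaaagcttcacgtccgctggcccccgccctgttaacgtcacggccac
Mthfd1: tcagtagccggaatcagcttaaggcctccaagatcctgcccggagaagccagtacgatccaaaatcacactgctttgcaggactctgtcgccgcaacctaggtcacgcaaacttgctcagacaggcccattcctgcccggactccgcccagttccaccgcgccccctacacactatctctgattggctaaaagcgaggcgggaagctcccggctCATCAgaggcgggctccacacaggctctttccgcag
Counted from the RefSeq start, the match lies at -185 in Mthfd2, at -153 and -91 in Mthfd1l and at -36 in Mthfd1. The RefSeq start of Mthfd2 lies inside the gene as GENCODE draws it, and so do those of Phgdh, Psat1, Psph, Shmt1 and Aldh1l1. For Mthfd2, Psat1, Shmt1 and Aldh1l1 the whole searched window lies inside, so the GENCODE starts of these genes were not searched.

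Atf4 itself averaged 9893 ± 302 normalised reads after STM2457 and 15003 ± 1088 in DMSO (SD, n = 3), a fold of 0.653 with an interval of 0.612 to 0.696 (limma adjusted p = 4.62e-10). That fold lies near those of Mthfd2 and Psph and below those of the other 5 genes that fell less. The part of Atf4 in the fall of the enzymes was not tested.

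Of 16 tested genes among 21 other folate enzymes and carriers, 7 rose, 2 fell and 7 did not pass, with a median fold of 1.07. Over all tested genes 30.7% rose, 25.7% fell and 56.3% did either, so the number called in this list was near the background. Fpgs, the synthase that adds glutamates to folate and keeps it in the cell, rose 1.503-fold, with 1131 ± 29.2 normalised reads after STM2457 and 743 ± 6.25 in DMSO (SD, n = 3, limma adjusted p = 1.35e-10). Mtfmt, which formylates the mitochondrial initiator tRNA, rose 1.31-fold (limma adjusted p = 5.87e-06) and Slc25a32, the mitochondrial folate carrier, 1.22-fold (1.31e-05). The others named here that rose were Gart and Atic, which use formyltetrahydrofolate in purine synthesis, and the folate carrier gene Slc19a1. Mthfd2l, a mitochondrial relative of Mthfd2, fell to 0.886 (limma adjusted p = 0.0322). It did not pass when DMSO replicate 3 (0.104) or STM2457 replicate 2 (0.130) or 3 (0.0642) was left out.

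The glycine cleavage system, a mitochondrial complex that breaks glycine down into a second source of one-carbon units, had 6 tested genes among 7. Of these 3 rose, 1 fell and 2 did not pass, with a median fold of 1.07, and with 56.3% of all tested genes called the number called was near the background here too. Gcsh, for the carrier protein H, rose 1.33-fold, with 1748 ± 47.7 normalised reads after STM2457 and 1300 ± 28.6 in DMSO (SD, n = 3, limma adjusted p = 7.24e-09). Amt, for the aminomethyltransferase, fell to 0.630, with 69.1 ± 12.7 after STM2457 and 108 ± 0.751 in DMSO (SD, n = 3, limma adjusted p = 1.76e-04). Lipt1, a lipoyl transferase gene, rose 1.22-fold (limma adjusted p = 0.0120), but not without DMSO replicate 1 (0.0665) or STM2457 replicate 1 (0.0719), nor with upper-quartile centring (0.0947). Dld, the dihydrolipoamide dehydrogenase gene that other complexes share, rose 1.06-fold (limma adjusted p = 0.0449). Its groups overlapped, and it did not pass by limma-voom on reads (0.0886), with upper-quartile centring (0.491), or when DMSO replicate 3 (0.277) or STM2457 replicate 1 (0.103) or 2 (0.198) was left out. Gldc, for the glycine decarboxylase itself, was not tested, with at most a few reads per library (1.32 ± 1.51 normalised reads after STM2457 and 2.00 ± 1.01 in DMSO, SD, n = 3).

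Among genes for serine and glycine transport and use, 18 of 26 were tested, of which 7 fell, 4 rose and 7 did not pass, with a median fold of 0.925. The number called was again near the 56.3% of all tested genes, of which 25.7% fell and 30.7% rose. Cth, for the cystathionine lyase that completes the route from serine to cysteine, came to 0.448 of its DMSO level. It measured 391, 342 and 319 normalised reads after STM2457 and 609, 1001 and 752 in DMSO (limma adjusted p = 0.0151). Slc6a9, a glycine transporter gene, came to 0.491 (limma adjusted p = 0.0209). In both genes DMSO replicate 2 was highest. Cth did not pass without DMSO replicate 3 (limma adjusted p = 0.0511) or without STM2457 replicate 2 (0.0563) or 3 (0.0511). Slc6a9 did not pass without DMSO replicate 3 (0.0570) or without STM2457 replicate 1 (0.0626), 2 (0.0731) or 3 (0.0664). Cbs, whose product brings serine into the route that Cth completes, was not tested. It measured 4.30 ± 1.14 normalised reads after STM2457 and 5.00 ± 0.0306 in DMSO (SD, n = 3). Slc1a4, a carrier of serine, alanine and other neutral amino acids, fell to 0.607, with 1879 ± 35.4 normalised reads after STM2457 and 3064 ± 259 in DMSO (SD, n = 3, limma adjusted p = 3.79e-10). The other genes that fell were the amino acid transporter genes Slc1a5 and Slc38a2, the sideroflexin gene Sfxn3 and the serine racemase gene Srr. Sptlc1 and Sptlc2, whose products join serine to a fatty acyl group at the start of sphingolipid synthesis, rose 1.31-fold (limma adjusted p = 4.01e-07) and 1.17-fold (3.69e-05). Ptdss1, for a phosphatidylserine synthase, rose 1.09-fold (limma adjusted p = 0.00904), but did not pass with upper-quartile centring (0.151). Gcat, for a glycine acetyltransferase, also rose (0.0273), but not by limma-voom (0.0521), with that centring (0.306) or with no filter (0.0523). Nor did it pass without DMSO replicate 3 (limma adjusted p = 0.105) or STM2457 replicate 1 (0.0879) or 2 (0.164). Sfxn1, the gene of a mitochondrial serine carrier, stood at 0.998 and did not pass (0.771). Exons of Slc6a9, Srr, Lipt1, Gart, Ptdss1, Fpgs and Mettl3 overlap genes of the opposite strand, and the reads of those exons are uncertain. The largest overlap with 1 such gene was 27.8% of the exon length for Slc6a9, 27.2% for Srr and 19.7% for Gart. It was 18.4% for Mettl3, 12.8% for Lipt1, 5.33% for Ptdss1 and 1.6% for Fpgs.

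**Figure D5:**
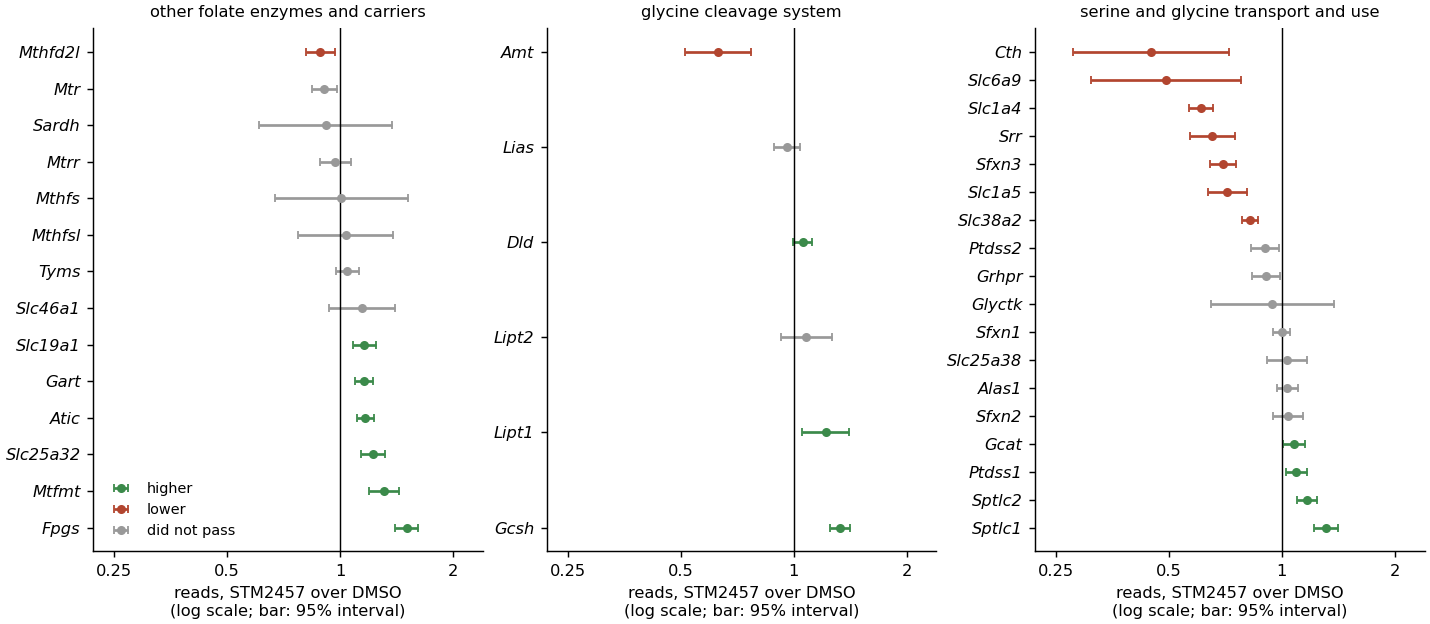
Fold of reads, STM2457 over DMSO (log axis, bars are 95% intervals), for tested genes of 3 related lists, coloured by the limma call. Amt at 0.630 and Cth at 0.448 lie lowest in their lists, and Fpgs at 1.503, Gcsh at 1.33 and Sptlc1 at 1.31 lie highest.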

How the data were processed

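The authors deposited 1 table of log2 values for 6 libraries, 3 per group, and every column was matched to a sample by name. The authors ran HISAT2 2.2.1, featureCounts 2.0.1, DESeq2 and FastQC 0.11.9 with GRCm38, per the submitters' processing notes. The sources used here name no annotation, strand setting or transform. The values have the form of a regularised log2 transform, pulled towards each gene's mean, so their differences understate changes. Reads were recovered by inverting its equations (ridge penalty 60.2, dispersion 0.0111 plus 1.90 over the mean). Of genes under a mean of 500 reads, 98.7% of values came out whole within 0.05, against 62.3% from 2000 reads. The settings were fitted to bring values of the lower genes near whole numbers, so the 98.7% is no separate check. Of the 6 values of each enzyme, 0 were whole for Aldh1l2 and Mthfd2 and 1 each for Phgdh and Psat1, with a largest distance of 0.441 reads. The size factors this gave, 0.995 to 1.01, equalled the median of ratios of the recovered reads to 4 digits.

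Calls come from limma 3.58.1 in R 4.3.3 (trend, robust priors) on the deposited values of 12618 genes with a mean of at least 3.32, the log2 of 10 reads, with Benjamini-Hochberg adjustment over all of them. Folds and 95% intervals come from limma-voom with TMM on recovered reads. On simulated data for STM2457 against DMSO (12645 genes), limma called 97 of 99 genes given a log2 change of 1, 87 of 99 given 0.5 and 16 of 12447 left unchanged. The simulation gave every gene the same dispersion, 0.000239, and changed few genes, whereas 56.3% were called in these data. Its rates need not hold here, least of all for genes with a wider spread, such as Psph and Aldh1l2 in DMSO. Named genes are the 10 enzymes, Mettl3, Atf4 and, per related list, up to 3 called genes with the largest rise and fall, with other called genes by name; 2 genes of the folate list are counted but not reported here. Cd68, Ager, Pdgfra, Lum, Gldc, Cbs, Sfxn1, values for Gcat and the overlapping genes were added after their values were seen. The members and lists were chosen with earlier results of these data known. Deviations of same-numbered libraries correlated at 0.0501, 0.0110 and 0.0399, and those of other pairs of an STM2457 and a DMSO library at -0.0563 to 0.0218. These values cannot show whether same-numbered libraries were handled together.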

Additional observations from a re-analysis of the deposited data

How the results depend on the processing

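The count of enzyme genes that fell was 8 under the 6 alternatives that kept all libraries (limma-voom, upper-quartile centring, no filter, a filter at 50 reads, plain priors and the replicate block) and 7 to 8 without 1 library, with 0 higher throughout. The share of all tested genes that fell moved more with upper-quartile centring, to 38.2% against 25.7%. With no filter it was 14.2%, but of 24138 tested genes in place of 12618, and the number that fell was 3428 against 3240. Mthfd1 passed in none of these 12 fits, and its log2 difference changed sign with upper-quartile centring (-0.0225, against 0.0152). That centring shifts the difference of every gene by the same amount, and the median over all tested genes went from 0.00379 to -0.0339. With the replicate number as a block the calls were 3864 higher and 3226 lower over all genes. The block ended the calls of Cth (adjusted p = 0.0563) and Slc6a9 (0.0643) and moved no call of the enzymes. For the 3 ratios, whose means cannot move under pairing, the exact paired p was 0.25 each, the smallest that 3 pairs allow. Without 1 library, the log2 difference between the groups ran from -0.780 to -0.616 for Mthfd2 over Mthfd1. It ran from -0.362 to -0.279 for Mthfd1l over Mthfd1 and from -0.120 to -0.031 for Shmt2 over Shmt1. Of the other folate genes 1 fell with no filter and 1 to 3 without 1 library. Of glycine cleavage genes 1 rose with upper-quartile centring and 1 to 3 without 1 library. Of 18 tested serine and glycine transport and use genes 2 rose and 9 fell with that centring. In that list 5 fell with the replicate block and 5 to 8 without 1 library. Over all 12618 tested genes 2819 rose and 4814 fell with that centring. Without 1 library 3402 to 3797 of them rose and 2704 to 3152 fell. Depth does not let Aldh1l1 be measured.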
